A study of Mus musculus with 18 samples.

Results

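The genes described here encode the complement and coagulation proteins that the liver releases into blood. The set holds 37 mouse genes listed by name, 17 of complement and 20 of coagulation, its inhibitors and fibrinolysis. Each was matched to the non-control probes of the array through the transcript accession that the array's own annotation gives for a probe. All 37 had a probe among the 17721 genes tested, and all 37 were well above background on all 18 arrays. Of these genes, 9 had several tested probes, and the brightest was used.

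Complement is a cascade of plasma proteases that marks and lyses microbes. Lectin and antibody recognition lead to cleavage of C3, the convertase amplifies that step, and the terminal components assemble a pore in the target membrane. Coagulation is a second protease cascade, in which vitamin K-dependent enzymes and their cofactors generate thrombin, thrombin turns fibrinogen into fibrin, and plasmin later dissolves it. Hepatocytes are the main source of most of these proteins, and several of the genes are also known to respond to the acute phase reaction.

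RNA was from livers of female mice aged 6 weeks, in 6 groups of 3 samples, each sample on its own single-colour array. The Nrf1 CKO group was Nrf1(dN/-)::Alb-Cre, in which the albumin promoter, active in hepatocytes, drives Cre, and its control was Nrf1(dN/+), so both groups carried the dN allele (strain given as mixed). The Nrf2 KO group was Nrf2(-/-) and its control Nrf2(+/+) (strain C57BL/6). The Keap1 KD group was Keap1(Kd/-) and its control Keap1(Kd/+), so the controls carried a Kd allele too (strain mixed). NRF1 (gene Nfe2l1) and NRF2 (Nfe2l2) are related transcription factors of the antioxidant response, and KEAP1 marks NRF2 for degradation. Each mutant group was compared with its own line's control. Whether the 3 samples of each group came from 3 mice is not given in the labels, so the p-values rest on a spread that could be technical.

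Levels are given as scaled log2 signal, the log2 of a probe's signal minus log2 of the 75th percentile of its array, and a log2 change is the mutant mean minus the control mean on that scale. Probes differ in how brightly they bind, so a gene's level is compared only with itself across arrays. Where genes are binned by signal or markers summed below, brightness stands for array signal and not for transcript number. On each array 50% to 65% of the 43379 non-control spots passed as well above background, and no spot of a member was saturated. The targeted genes went with the labels: the mean for Nfe2l1 was 3.72 ± 0.18 (SD, n = 3) in Nrf1 controls and -6.44 ± 0.20 (n = 3) in Nrf1 CKO, where no array was well above background, at least 469-fold lower. The Nrf2 and Keap1 controls had higher Nfe2l1 means than the Nrf1 controls, at 4.37 and 4.34. Genotype and line cannot be told apart in this difference. Nfe2l2 was at 3.32 ± 0.20 (n = 3) in Nrf2 controls and -4.88 ± 1.501 (n = 3) in Nrf2 KO, with 1 of 3 arrays above background. Keap1 was at 4.19 ± 0.80 (n = 3) in its controls and 1.80 ± 0.06 (n = 3) in Keap1 KD.

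In Nrf1 CKO livers most of the cascade genes were lower. Of the 37 genes, 21 fell and 1, C6, rose at an adjusted p under 0.05. Over all genes tested 18.9% were called in this comparison, 10.9% lower and 7.99% higher. The log2 change was negative for 36 of the 37 genes, with a median of -0.60, against -0.09 over all genes tested. The mutant and control values did not overlap for 32 genes that were lower and for 1 that was higher, where 28.1% and 15.3% of all genes separated in these directions. The counts by role below stand against the same shares over all genes. After quantile normalization, 3 of the 21 falls (F7, F9 and Klkb1) and the rise of C6 passed, and the other 18 did not. The falls were of moderate size. The largest was 2.81-fold for F7, and Klkb1 and Fga were the other genes that fell by more than 2-fold.

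**Figure D1:**
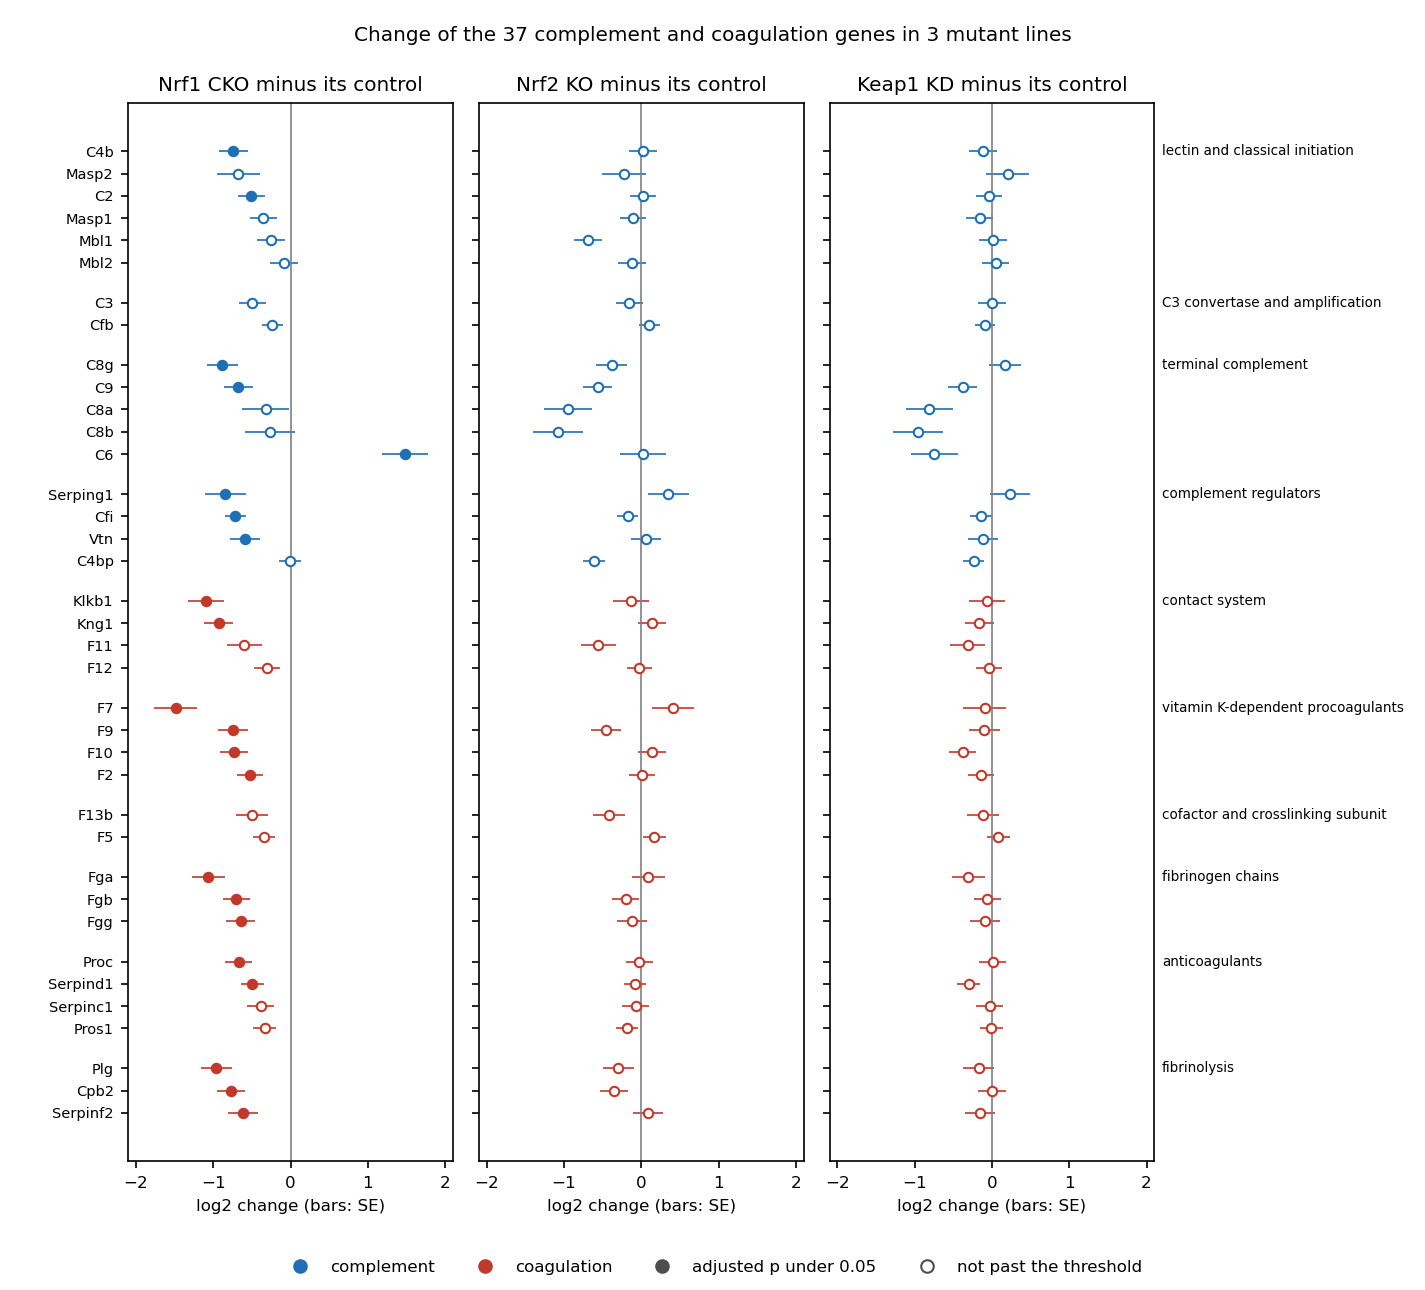
Log2 change (mutant mean minus control mean, n = 3 each; bars, SE) of the 37 genes by role in the 3 lines, with filled points where the adjusted p was under 0.05. In Nrf1 CKO 36 of 37 points lie left of 0 (26 of 37 after quantile normalization), and in Nrf2 KO and Keap1 KD no point is filled.

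The promoters of the genes that the changes turn on are shown next, to set the genes that fell together beside the gene that rose and the C8a and C8b pair. A promoter of 250 bases before to 50 after the start was found for 28 of the 37 genes (29 promoters, RefSeq, build GRCm38.p6). Each is printed 5′ to 3′ along the gene's own strand, with matches to the searched motifs in capitals. The motifs were the core of the antioxidant response element bound by NRF1 and NRF2 (TGACNNNGC), the core of an HNF1 site (GTTAAT), and the sites of C/EBP (TTGCNNAA) and STAT3 (TTCCNNGAA), each on both strands. F7, which showed the largest fall, lies at chr8:13025784-13026083 on the plus strand, and Klkb1, the largest fall of the contact system, at chr8:45294786-45295085 on the minus strand. C6, the gene that rose, lies at chr15:4726960-4727259 on the plus strand. The neighbouring fibrinogen genes Fga and Fgb lie at chr3:83025903-83026202 on the plus strand and chr3:83049814-83050113 on the minus strand. The neighbours C8a and C8b, lowest in Nrf2 KO and in Keap1 KD, lie at chr4:104876349-104876648 on the minus strand and chr4:104766067-104766366 on the plus strand.
F7: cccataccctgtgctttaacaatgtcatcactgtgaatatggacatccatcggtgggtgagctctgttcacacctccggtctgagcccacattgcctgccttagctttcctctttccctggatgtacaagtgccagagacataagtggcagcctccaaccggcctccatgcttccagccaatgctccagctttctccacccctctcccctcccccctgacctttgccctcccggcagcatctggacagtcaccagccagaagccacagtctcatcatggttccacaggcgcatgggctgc
Klkb1: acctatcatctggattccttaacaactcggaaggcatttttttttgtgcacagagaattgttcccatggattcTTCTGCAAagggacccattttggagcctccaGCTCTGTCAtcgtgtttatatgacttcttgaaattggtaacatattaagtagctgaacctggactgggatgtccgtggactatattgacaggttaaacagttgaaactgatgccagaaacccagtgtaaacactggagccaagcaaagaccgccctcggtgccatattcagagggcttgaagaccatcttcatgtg
C6: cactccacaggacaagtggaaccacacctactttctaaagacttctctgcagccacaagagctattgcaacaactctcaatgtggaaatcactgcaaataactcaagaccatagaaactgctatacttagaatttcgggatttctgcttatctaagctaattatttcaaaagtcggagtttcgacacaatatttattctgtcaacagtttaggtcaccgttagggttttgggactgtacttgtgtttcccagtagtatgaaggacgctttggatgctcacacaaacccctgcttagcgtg
Fga: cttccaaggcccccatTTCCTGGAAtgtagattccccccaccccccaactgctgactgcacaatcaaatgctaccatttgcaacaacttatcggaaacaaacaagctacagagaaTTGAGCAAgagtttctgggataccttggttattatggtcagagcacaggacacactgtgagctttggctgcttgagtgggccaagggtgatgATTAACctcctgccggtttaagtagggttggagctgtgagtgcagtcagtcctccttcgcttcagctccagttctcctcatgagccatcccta
Fgb: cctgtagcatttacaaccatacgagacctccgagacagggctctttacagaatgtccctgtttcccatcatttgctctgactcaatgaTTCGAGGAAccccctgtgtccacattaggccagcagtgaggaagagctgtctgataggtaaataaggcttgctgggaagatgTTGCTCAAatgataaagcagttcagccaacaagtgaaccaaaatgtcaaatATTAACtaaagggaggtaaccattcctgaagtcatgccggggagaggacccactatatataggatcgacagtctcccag
C8a: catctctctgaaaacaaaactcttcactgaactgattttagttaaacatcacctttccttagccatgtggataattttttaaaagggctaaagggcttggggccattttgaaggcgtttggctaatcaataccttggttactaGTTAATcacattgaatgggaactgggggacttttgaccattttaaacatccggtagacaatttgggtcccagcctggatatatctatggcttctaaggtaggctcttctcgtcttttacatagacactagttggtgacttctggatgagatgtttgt
C8b: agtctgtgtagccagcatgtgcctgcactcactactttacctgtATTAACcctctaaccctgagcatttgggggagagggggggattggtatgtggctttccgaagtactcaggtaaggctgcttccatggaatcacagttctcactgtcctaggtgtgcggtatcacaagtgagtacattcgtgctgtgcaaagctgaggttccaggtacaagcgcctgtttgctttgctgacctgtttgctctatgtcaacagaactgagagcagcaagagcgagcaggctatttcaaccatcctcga

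The Fga and Fgb promoters each hold a STAT3 match, a C/EBP match and an HNF1 core, in this order towards the start. The Klkb1 promoter holds a C/EBP match and an antioxidant response element core, C8a and C8b each hold an HNF1 core, and the F7 and C6 windows hold none of the searched letters. The antioxidant response element core was present in 3 of the 29 promoters (10.3%; Klkb1, Mbl1 and Serpind1), against 12.4% of all 32851 promoters of that length. The HNF1 core was present in 27.6% of the 29 promoters against 7.1% of all, the C/EBP match in 31% against 10.8%, and the STAT3 match in 20.7% against 4.81%. An HNF4 site (CAAAGTCCA) was in none of the 29 and in 0.475% of all. These are matches of letters, and binding was not measured.

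Among the 6 genes that start the lectin and classical pathways, 2 fell in Nrf1 CKO. C4b, the component cleaved to form the convertase of both pathways, was at 7.37, 7.42 and 7.04 in the controls and 6.67, 6.59 and 6.36 in the mutants, a log2 change of -0.74 (SE 0.18, adjusted p = 0.0136). All 3 mutants were below all controls. C4b has a near-identical paralog, C4a, which its probe may also read. C2, its protease partner, was lower by the narrowest margin of the genes called (-0.51, SE 0.17, adjusted p = 0.0499). Masp2, the protease that cleaves C4 and C2, was at 6.05, 6.04 and 5.85 in controls and 5.66, 5.22 and 5.03 in mutants, but the change of -0.68 did not pass the test (adjusted p = 0.0998). A Masp2 probe annotated to another transcript gave -1.15. Masp1, a second protease of the lectin complex, and the lectins Mbl1 and Mbl2 gave -0.35, -0.25 and -0.08, none of which passed. Mbl2 had overlapping groups, with 9.11, 8.91 and 8.97 in controls and 8.74, 9.15 and 8.86 in mutants.

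The pivot of the cascade did not pass the test. C3 was at 10.29, 10.16 and 10.10 in controls and 9.85, 9.70 and 9.53 in Nrf1 CKO, a change of -0.49 (SE 0.18, adjusted p = 0.0626). The values of the groups did not overlap. Cfb, the protease subunit of the alternative convertase, was at 8.65, 8.70 and 8.59 in controls and 8.37, 8.48 and 8.40 in mutants (-0.23, SE 0.13, adjusted p = 0.228). Cfb lies next to C2 in the RefSeq gene order on chromosome 17.

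The 5 genes of the membrane attack pore did not move together, as 2 fell and 1 rose. C6, which binds C5b to start the pore, was at 1.18, 1.32 and 1.89 in controls and 2.06, 3.54 and 3.23 in Nrf1 CKO. It rose 2.79-fold (log2 change 1.48, SE 0.30, adjusted p = 0.00566), and the lowest mutant lay close to the highest control. With the arrays of the Nrf1 line alone C6 was not called. C8g, the lipocalin chain of C8, was at 7.09, 6.94 and 6.94 in controls and 6.43, 6.10 and 5.79 in mutants, a fall of 1.84-fold (-0.88, SE 0.20, adjusted p = 0.00986). C9, which forms the wall of the pore, was lower by 0.67 (log2 change -0.67, SE 0.19, adjusted p = 0.0224). The other chains of C8 had overlapping groups and did not pass, at -0.32 for C8a (95% confidence interval -0.98 to 0.33) and -0.27 for C8b (-0.96 to 0.43). The C8 gene that fell lies on chromosome 2, apart from the other two.

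Of 4 complement regulators, 3 fell. Serping1, the C1 inhibitor, which also inhibits plasma kallikrein, was at 6.42, 6.54 and 6.16 in controls and 5.89, 5.52 and 5.18 in mutants (-0.84, SE 0.26, adjusted p = 0.0359). Cfi, the protease that inactivates C3b and C4b, changed by -0.71 (SE 0.14, adjusted p = 0.00476) with little spread among controls, which were at 8.25, 8.24 and 8.20 against 7.77, 7.42 and 7.35 in mutants. Vtn, vitronectin, which blocks pore insertion and is also an adhesion protein, fell by 0.59 on the log2 scale (adjusted p = 0.0483). C4bp, the cofactor of CFI for C4b, stayed near 0 (-0.01, 95% confidence interval -0.30 to 0.29), with 7.81, 7.74 and 7.86 in controls and 7.88, 7.73 and 7.78 in mutants.

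All 4 contact system genes had mutant values below all control values, where 28.1% of all genes did, and 2 passed the test. Klkb1, plasma prekallikrein, was at 3.97, 3.63 and 3.78 in controls and 3.12, 2.65 and 2.31 in Nrf1 CKO. It was 2.14-fold lower (-1.10, SE 0.23, adjusted p = 0.00692). Kng1, kininogen, the precursor of bradykinin, was at 8.79, 8.68 and 8.57 against 8.20, 7.64 and 7.41, or 1.90-fold lower (-0.93, SE 0.19, adjusted p = 0.00528). A second Kng1 probe gave -0.95. F11, which lies next to Klkb1 on chromosome 8 and arose from the same ancestral gene, changed by -0.60 without passing (adjusted p = 0.0781). F12, the starter of the contact pathway, gave -0.31, from 7.57, 7.59 and 7.26 to 7.19, 7.20 and 7.11 (adjusted p = 0.197).

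The vitamin K-dependent procoagulants fell in Nrf1 CKO, 4 of 4. F7, the protease that starts coagulation with tissue factor, was at 5.52, 5.48 and 5.17 in controls and 4.60, 3.73 and 3.37 in mutants. It was 2.81-fold lower (-1.49, SE 0.27, adjusted p = 0.00353), and mutant replicate 1 was the closest to the controls, as it was for Klkb1, Plg and Kng1. F10, the next gene on chromosome 8 and the enzyme that cleaves prothrombin, was at 8.44, 8.35 and 8.23 against 7.82, 7.56 and 7.43, a smaller change of -0.73 (SE 0.18, adjusted p = 0.0130). F9, the protease lacking in haemophilia B, was at 3.82, 3.59 and 3.57 against 3.03, 2.98 and 2.72 (-0.75, SE 0.20, adjusted p = 0.0179). F2, prothrombin, had the smallest change, -0.52 (SE 0.17, adjusted p = 0.0438), from 9.24, 9.19 and 9.19 to 8.92, 8.66 and 8.47. After normexp background correction with quantile normalization it was at 0.0027.

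**Figure D2:**
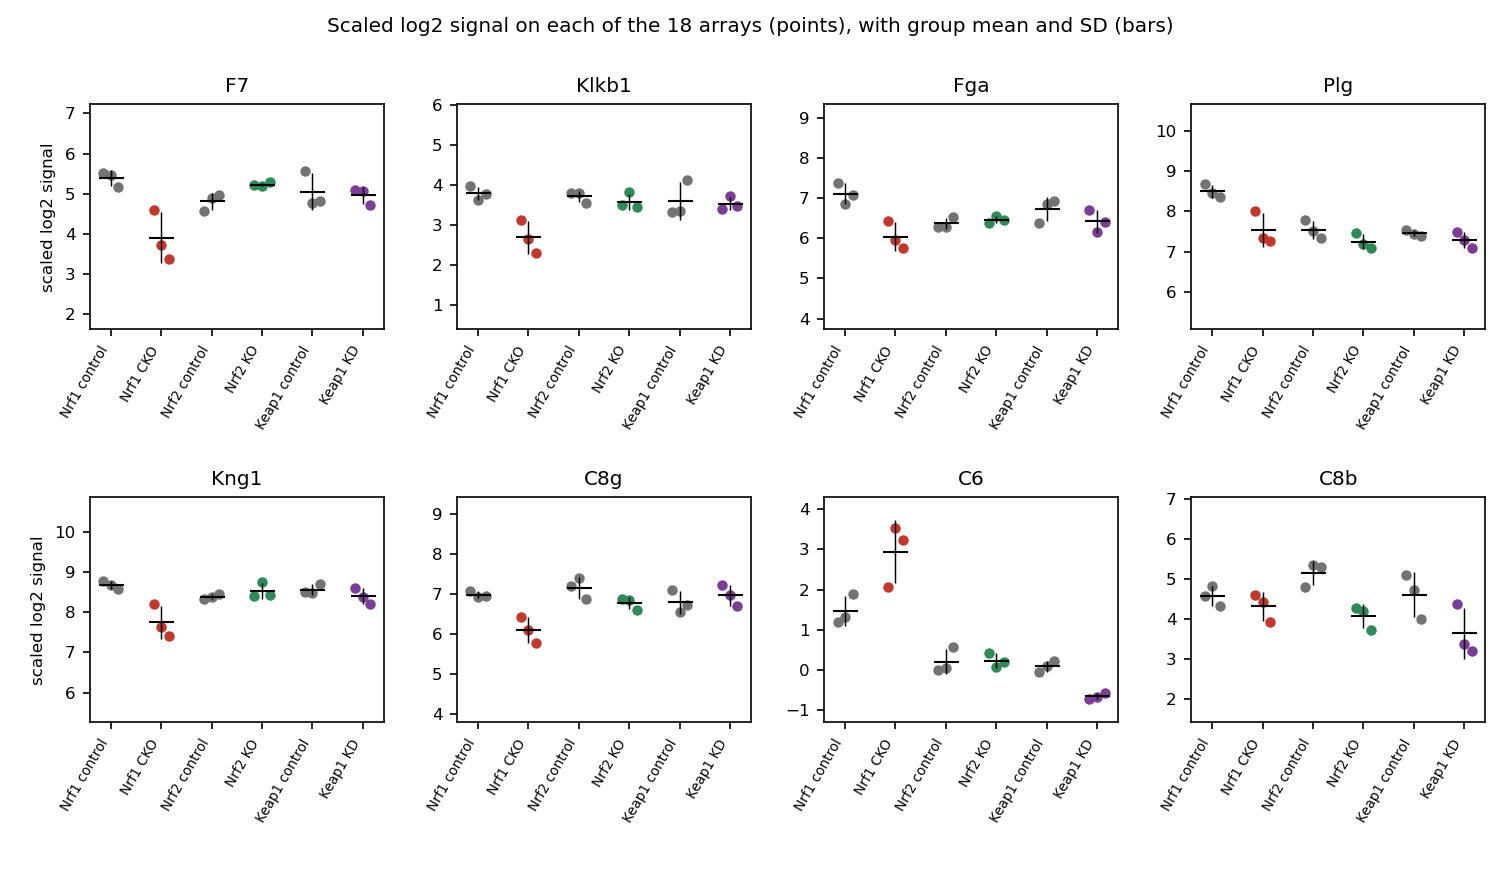
Scaled log2 signal on each of the 18 arrays for 8 of the genes (points), with the group mean and SD (bars, n = 3); every panel spans the same range of log2 units. For F7, Klkb1, Fga, Plg, Kng1 and C8g the 3 Nrf1 CKO arrays lie below the 3 Nrf1 control arrays, for C6 they lie above, and C8b has its lowest group means in Nrf2 KO and Keap1 KD.

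Neither F5, the cofactor of factor Xa, nor F13b, the carrier subunit of the fibrin crosslinking enzyme, passed. F5 was at 3.41, 3.26 and 3.23 in controls and 3.19, 2.79 and 2.90 in mutants (-0.34, adjusted p = 0.112). F13b was at 5.08, 4.92 and 4.74 against 4.68, 4.37 and 4.22 (-0.49, adjusted p = 0.104). In both cases the groups did not overlap, where 28.1% of all genes separated in this direction.

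The genes of the 3 fibrinogen chains all fell. Fga, the alpha chain, was at 7.39, 6.86 and 7.08 in controls and 6.44, 5.95 and 5.75 in Nrf1 CKO, 2.09-fold lower (-1.06, SE 0.21, adjusted p = 0.00507). Fgb, the beta chain, changed by -0.70 (SE 0.17, adjusted p = 0.0139). Fgg, the gamma chain, was at 9.64, 9.56 and 9.53 against 9.18, 8.89 and 8.71 (-0.65, SE 0.19, adjusted p = 0.0288). The 3 genes share a locus on chromosome 3, with Fga between the others, and the chains are assembled in equal number. The confidence intervals of the 3 changes overlap, at -1.51 to -0.61 for Fga, -1.07 to -0.33 for Fgb and -1.05 to -0.24 for Fgg. After quantile normalization none of the 3 passed, with changes of -0.58 (adjusted p = 0.0841), -0.06 (adjusted p = 0.709) and -0.17 (adjusted p = 0.421).

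Of the 4 genes of the anticoagulant group, 2 fell. Proc, protein C, which inactivates factors Va and VIIIa, changed by -0.67 (SE 0.17, adjusted p = 0.0168), from 8.31, 8.50 and 8.13 to 7.96, 7.47 and 7.50. Serpind1, heparin cofactor II, a thrombin inhibitor, fell by 0.49 on the log2 scale (adjusted p = 0.0286), but was at 0.01 after quantile normalization and at 0.05 after normexp. Serpinc1, antithrombin, did not pass at -0.39 (adjusted p = 0.133), and its second probe gave -0.85. Pros1, protein S, the cofactor of protein C, did not pass at -0.34 (adjusted p = 0.118), with 3.74, 3.68 and 3.47 in controls and 3.27, 3.43 and 3.17 in mutants, and its second probe gave 0.19.

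The 3 fibrinolysis genes fell. Plg, plasminogen, was at 8.68, 8.47 and 8.36 in controls and 8.02, 7.35 and 7.25 in Nrf1 CKO, 1.95-fold lower (-0.96, SE 0.20, adjusted p = 0.00604). Cpb2, the carboxypeptidase that slows plasminogen binding to fibrin, was at 8.04, 8.06 and 7.84 against 7.53, 7.20 and 6.88 (-0.77, SE 0.18, adjusted p = 0.0108). A second probe of Cpb2 gave -0.42. Serpinf2, the main plasmin inhibitor, was at 7.73, 7.82 and 7.60 against 7.48, 6.91 and 6.89 (-0.62, SE 0.19, adjusted p = 0.0386). The precursor of plasmin and its inhibitor were both lower.

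Set side by side, the coagulation changes were all negative, while complement held the single rise. Of the 20 coagulation genes 14 fell and 0 rose, all 20 changes were negative and the median was -0.66, with a range from -1.49 to -0.31. Of the 17 complement genes 7 fell and 1 rose, 16 were negative and the median was -0.49, with a range from -0.88 to 1.48. Serping1 and Vtn act in both systems. Counted with coagulation, they leave 5 falls among 15 complement genes and give 16 among 22. The difference between the classes was not tested.

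The members are mostly bright genes, and bright genes in general were lower in Nrf1 CKO. When the genes tested were split into 10 bins of equal size by mean signal, 30 of the 37 lay in the brightest bin, where the median change over all genes was -0.40 and that of the 30 members was -0.61. In the dimmest bin the median over all genes was 0.12. Among 7013 other genes within the members' range of signal, 1262 fell and 314 rose (22.5% called), with a median of -0.23. For 2934 of the 7013 all mutant values were below all control values. The 75th percentile itself was higher on the Nrf1 CKO arrays, with a log2 of 8.255 to 8.655 against 7.598 to 7.975 on the controls, so that without any scaling the members had a median change of 0.089. The part of this signal dependence in the members' changes was not tested beyond the scalings below.

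**Figure D3:**
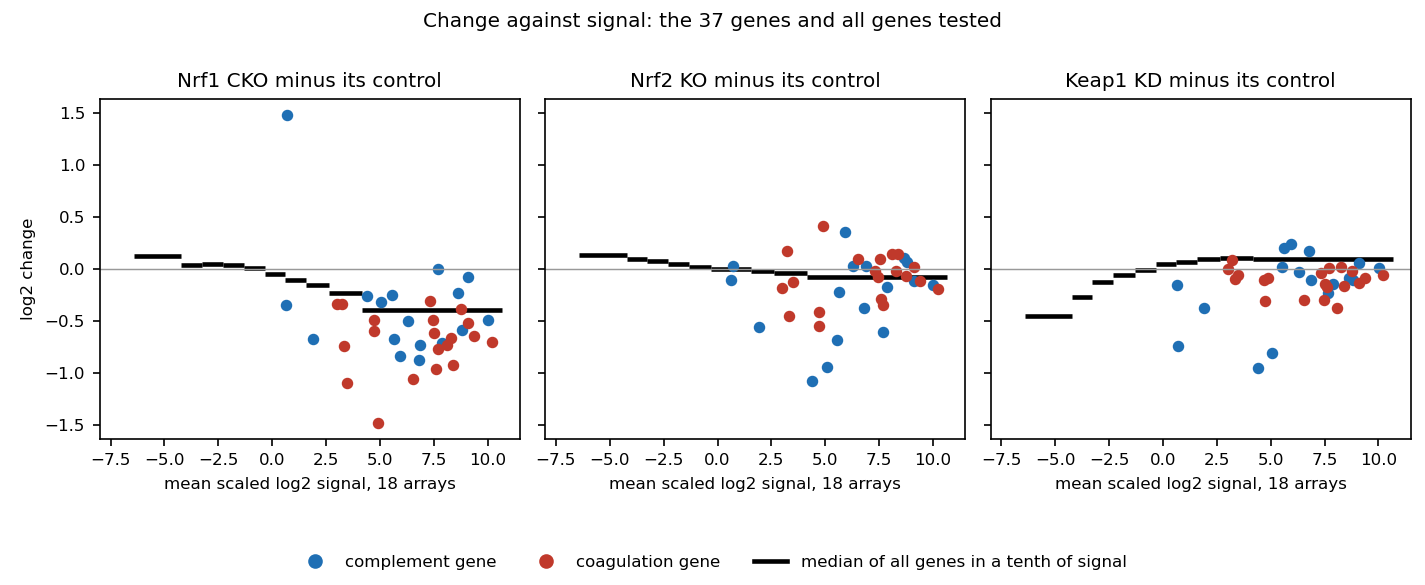
Log2 change of each gene (mutant minus control) against its mean scaled log2 signal over the 18 arrays, with the median change of all genes in each of 10 bins of signal (black lines). In Nrf1 CKO the lines slope down to -0.40 in the brightest bin, and in Keap1 KD they slope the other way.

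The count of falls depended on the scaling. Quantile normalization left 3 of the 21 falls (F7, F9 and Klkb1), with C6 still higher and C4bp newly called higher (0.49, adjusted p = 0.0245). The members' median was then -0.17, with -0.05 for complement (9 of 17 negative) and -0.20 for coagulation (17 of 20 negative). Over all genes the same step turned 1416 higher and 1932 lower calls (42.3% higher) into 1539 and 1254 (55.1% higher). Scaling to the array median, which moved the median of all genes to -0.20, left 16 falls. Leaving out 1 array gave 6 to 23 falls, with 6 without Nrf1 CKO replicate 3, 10 without CKO replicate 2, 8 without control replicate 1 and 12 without control replicate 2. F7, Klkb1, Fga, Plg, Kng1, Cfi and C6 were called in all 6 of these fits.

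**Figure D4:**
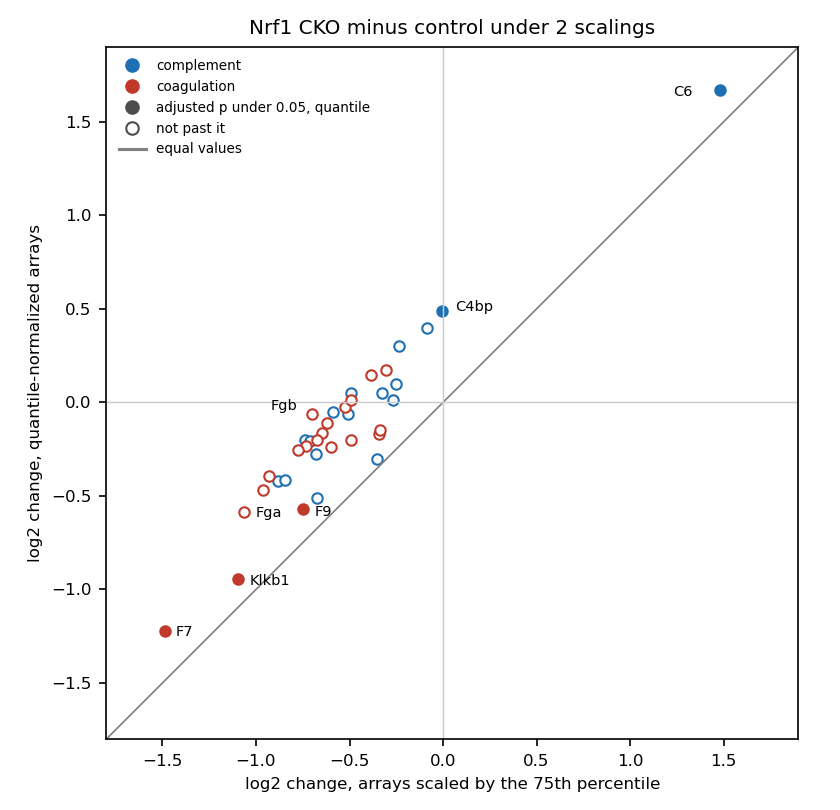
Log2 change in Nrf1 CKO (mutant minus control) of the 37 genes under scaling by the 75th percentile (horizontal) and under quantile normalization (vertical), filled where the adjusted p was under 0.05 after quantile normalization. All 37 points lie above the line of equal values, and C6, C4bp, F7, F9 and Klkb1 are filled.

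The arrays of the Nrf1 line were scanned on the same date but on different slides, and slide 2 held control replicate 3 with all 3 mutants. Within that slide, with 1 control against the same 3 mutants, all 37 genes had the sign of the pooled change, and the median change was -0.50. For genes whose groups did not overlap, all 22 called genes included, this sign was fixed in advance. F7 was at -1.27, Klkb1 at -1.085, Fga at -1.04 and C6 at 1.06 within the slide. With slide as a block in the fit 0 of the 37 genes were called. Over all genes tested 41 rose and 24 fell in that fit, against 1416 and 1932 without the block. Slide 1 held controls only, so that fit rests on 1 control against the 3 mutants. With slide as a random block 21 fell and 1 rose. The slide correlation fitted there was -0.016, so that fit hardly differed from the main fit. The 3 mutant arrays differed in extent, with a median difference from the control mean of -0.336, -0.674 and -0.818 for replicates 1, 2 and 3. In these, 33, 35 and 36 of the 37 genes were below the control mean. The log2 75th percentile used for scaling rose in the same order, at 8.255, 8.443 and 8.655. Its part in the differing extent was not tested.

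Markers of liver cell types changed in both directions in Nrf1 CKO. Of 10 measured hepatocyte markers, all above background on all 18 arrays, 6 fell and 0 rose (median -0.89), among them Hpd (-1.45), Ass1 (-1.38), Tat (-1.33) and Tdo2 (-1.14), enzymes of amino acid metabolism. Alb, albumin, was at -0.47 (adjusted p = 0.0781). The summed level of the list was 1631 to 2506 in mutants and 2825 to 3437 in controls, in multiples of the 75th percentile. Of 9 stellate cell and fibroblast markers 8 rose (median 1.02), led by Col1a1 (2.21), and their summed level was 43.0 to 79.6 in mutants and 26.5 to 29.1 in controls. After quantile normalization 2 hepatocyte markers passed as lower and 8 stellate cell markers as higher. Of 11 macrophage markers 2 rose (Trem2 by 4.15 and Marco by 2.18) and Cd163 was lower (-1.504), with summed levels of 117.2 to 331.2 in mutants and 85.6 to 157.6 in controls. Of 8 markers of sinusoidal endothelium, Lyve1 fell (-2.42), and the summed level was 38.2 to 58.1 against 50.3 to 59.9. Cd8a (1.16) rose among 5 lymphocyte markers and Cela1 (1.22) among 3 pancreas markers, each well above background on 1 of 3 control arrays, and neither list held a call after quantile normalization. No marker of cholangiocytes (5 measured), neutrophils (4), platelets (4) or erythroid cells (3) was called. In these bulk samples, fewer hepatocytes and less of these RNAs per hepatocyte cannot be told apart, and the part of cell makeup in the members' changes was not tested.

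Other genes of the same pathways moved in both directions. Among 21 measured other complement genes, 4 fell and 1 rose (median -0.12). Among the falls were Cfhr2 (-0.89), a gene related to complement factor H, Cd59a (-0.81), which protects cells from the pore, and Hc (-0.68), which encodes C5. C3ar1, a receptor for a C3 fragment, was well above background on 0 of 3 control arrays and on 3 of 3 mutant arrays, at least 1.55-fold higher (adjusted p = 0.00455). That bound sets the control arrays at their lowest signal well above background. After quantile normalization 2 fell and 2 rose, with a median of 0.23. Among 25 other coagulation and fibrinolysis genes, 6 rose and 3 fell (median -0.06). The 4 largest were Anxa2 (2.47) and Plat (2.04), a plasminogen receptor subunit and the tissue plasminogen activator, Plaur (1.96), the urokinase receptor, and Thbd (1.71), thrombomodulin. The falls were Hrg (-1.04), Hgfac (-0.90) and Vkorc1 (-0.72), the enzyme that recycles vitamin K. Ggcx, the carboxylase that uses it, was at -0.48 (adjusted p = 0.140). After quantile normalization 7 of the 25 rose and 1 fell, with a median of 0.24.

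Other liver lists gave the setting of these changes. Of 21 genes listed as other secreted plasma proteins of hepatocytes, 8 fell and 1 rose (median -0.50). The largest falls were Serpina6 (-1.47), Apoa2 (-0.74) and Apoh (-0.72). The gene that rose was the growth factor Hgf (1.14), which stellate cells are known to make, so the name of the list does not describe it well. Of 21 acute phase genes 3 fell, Il6ra (-1.83), the receptor of interleukin 6, Itih4 (-1.004) and Itih3 (-0.85), with a list median of -0.35. Of 16 liver-enriched transcription factors 3 fell, Cebpb (-1.07), Nr1i3 (-0.91) and Cebpa (-0.84), and Hnf4a was at -0.23 (adjusted p = 0.484). After quantile normalization 0 of the plasma proteins fell and 1 rose (median -0.04), while 2 acute phase genes and 3 transcription factors passed as lower. The differences between these lists and the members were not tested.

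In Nrf2 KO livers no cascade gene passed the test, and no gene of the related and marker lists did. Of 37 genes 0 were called with limma, where 0.0621% of all genes were, and 7 had an unadjusted p under 0.05, against 8.89% of all genes. The median change was -0.12, with 24 of 37 negative, -0.16 for complement and -0.08 for coagulation, and the latter was 0.04 after quantile normalization. The lowest members were C8b and C8a, neighbouring genes on chromosome 4 that encode the beta and alpha chains of C8. C8b was at 4.80, 5.34 and 5.29 in controls and 4.27, 4.21 and 3.73 in Nrf2 KO (-1.08, SE 0.33, adjusted p = 0.326). C8a was at 5.43, 5.64 and 5.45 against 4.66, 4.61 and 4.40 (-0.95, SE 0.31, adjusted p = 0.362). In both genes all knockout arrays were below all control arrays, and the groups did not overlap for 11 of the 37 genes (10 lower, 1 higher), where 20.8% of all genes separated in either direction.

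The smallest p-values of that comparison belonged to C4bp and Mbl1. C4bp was at 7.95, 8.04 and 7.69 in controls and 7.26, 7.32 and 7.27 in Nrf2 KO (-0.61, SE 0.14, adjusted p = 0.180). Mbl1, a mannose-binding lectin, was at 6.01, 6.47 and 6.12 against 5.50, 5.64 and 5.38 (-0.69, SE 0.18, adjusted p = 0.266). With array quality weights these genes passed, at adjusted p = 0.0269 for C4bp and 0.0455 for Mbl1, whereas 0 passed in any of the fits that left out an array. F7 was the highest member, at 4.57, 4.90 and 4.97 in controls and 5.21, 5.19 and 5.28 in knockouts (0.41, 95% confidence interval -0.17 to 0.999). F11 and F9 were at -0.56 and -0.46. The controls of this line shared slide 3 and a scan date that held no knockout array, so slide and genotype cannot be told apart within the line.

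In Keap1 KD livers no cascade gene passed either. Of 37 genes 0 were called with limma, where 5.52% of all genes were (0.948% higher and 4.58% lower), and 3 had an unadjusted p under 0.05, against 16.8% of all genes. The median change was -0.10 and 28 of 37 were negative. With arrays scaled to their median the members' median became 0.20, while that of all genes became 0.29. Over all genes that scaling also turned 168 higher and 811 lower calls into 355 and 372. The 3 genes with small p-values were all terminal complement genes. C8b was at 5.09, 4.73 and 4.001 in controls and 4.37, 3.37 and 3.20 in Keap1 KD (-0.96, SE 0.33, adjusted p = 0.112). C8a was at 5.16, 5.70 and 4.71 against 4.92, 4.01 and 4.21 (-0.81, SE 0.31, adjusted p = 0.166). In both genes control replicate 3 overlapped the mutants.

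C6 was at -0.06, 0.08 and 0.23 in Keap1 controls and -0.72, -0.68 and -0.57 in Keap1 KD, with no overlap (-0.74, SE 0.30, adjusted p = 0.207). Its change was thus negative in the line with lowered Keap1 and positive in Nrf1 CKO. Some settings called C8b (without Keap1 KD replicate 1, -1.32, adjusted p = 0.0336; normexp, adjusted p = 0.0491) and F10 (quantile normalization, -0.44, adjusted p = 0.0451; normexp, -0.45, adjusted p = 0.0144). The coagulation genes moved little, between -0.38 for F10 and 0.09 for F5. Among the other coagulation and fibrinolysis genes S100a10, the partner of Anxa2, rose by 1.33 (adjusted p = 0.0209), and in the remaining lists of plasma proteins, acute phase genes and transcription factors 0 genes were called. Of the marker lists, Trem2 (1.51) and Lyve1 (1.09) rose and Lum (-0.87) and Cela1 (-1.27) fell. The controls and mutants of this line shared slide 7 in 1 array each, where 26 of 37 genes kept the sign of the pooled change, and 1 scan date, where 30 did.

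The effects of the lines were then compared directly, as the mutant change in one line minus that in another. Between Nrf1 CKO and Nrf2 KO, 3 genes differed, where 5.58% of all genes did. They were F7 (-1.90, SE 0.39, adjusted p = 0.0147), Fga (-1.16, SE 0.30, adjusted p = 0.0375) and Kng1 (-1.07, SE 0.26, adjusted p = 0.0315). Their changes in Nrf2 KO itself were 0.41 for F7, 0.09 for Fga and 0.14 for Kng1, none of which passed the test. Between Nrf1 CKO and Keap1 KD, 3 genes differed, where 6.92% of all genes did. They were C6 (2.22, SE 0.43, adjusted p = 0.0128), C8g (-1.06, SE 0.29, adjusted p = 0.0410) and F7 (-1.40, SE 0.39, adjusted p = 0.0438). The F7 difference from Nrf2 KO and the C6 difference from Keap1 KD were called in all 12 fits that left out an array and after quantile normalization. The other 4 did not pass after quantile normalization, with adjusted p = 0.140 for Fga, 0.142 for Kng1, 0.205 for C8g and 0.0946 for F7 against Keap1 KD, and passed in 2 to 4 of the 12 fits. Quantile normalization newly called C4bp against both lines and C6 against Nrf2 KO, each with a positive difference.

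Between Nrf2 KO and Keap1 KD 0 of 37 genes differed with limma, where 3.09% of all genes did, and 1, Mbl1, had an unadjusted p under 0.05 (-0.71, adjusted p = 0.149). After normexp and quantile normalization F10 differed (0.63, adjusted p = 0.0270). C8b was the lowest member in both lines, and the difference between its effects was -0.12 (95% confidence interval -1.10 to 0.86). The counts of genes that differed from Nrf1 CKO were sensitive to single arrays, from 1 to 11 in each of the comparisons, with 11 in each when Nrf1 CKO replicate 1 was left out. With slide as a block they were 0 and 0.

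Neighbouring genes of the set are given side by side for Nrf1 CKO, Nrf2 KO and Keap1 KD, in that order. The log2 changes of C8a and C8b were -0.32 and -0.27, -0.95 and -1.08, and -0.81 and -0.96. F7 and F10 gave -1.49 and -0.73, 0.41 and 0.14, and -0.09 and -0.38. Klkb1 and F11 gave -1.10 and -0.60, -0.13 and -0.56, and -0.06 and -0.31. Differences within these pairs were not tested.

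The control groups differed from each other too. The 3 Nrf1 controls were above all 6 other control arrays for 8 genes (C6, C9, Cfi, Serping1, F11, Serpind1, Pros1 and Plg), and overlapped them for the other 29. The same count was not made over all genes tested, so whether 8 of 37 is unusual is not known. C6 had a mean of 1.46 in Nrf1 controls, 0.20 in Nrf2 controls and 0.09 in Keap1 controls. C9 had means of 3.03, 1.83 and 1.66, and Plg of 8.50, 7.54 and 7.46. The mean of Plg in Nrf1 CKO, 7.54, was thus close to the other controls, whereas that of C6, 2.94, was further from them than its own control. Strain is given as mixed for both the Nrf1 and the Keap1 controls, which need not be the same mixture. Line, strain, slide and scan date cannot be told apart in these differences.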

How the data were processed

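RNA from 18 liver samples was measured, 3 in each of 6 groups, on single-colour arrays. Per the labels' protocols, 500 ng of total RNA was labelled with Cy3, and per the file headers the scans were read with Feature Extraction 10.7.3.1. The deposited values used are the processed signal, a background-subtracted intensity on a linear scale, and the other output flags for spots above background, saturated or outlying. Of the 45018 spots in a file, the 1639 controls and any outlier spots were dropped. Repeated spots (10 each for 245 of 41174 probes) were averaged, and the log2 intensity was centred on the 75th percentile of each array.

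Probes were named through the transcript accession in the files and a RefSeq gene table (assembly GRCm38.p6), which gave a symbol to 26718 probes (64.9%). Genes were tested where a probe was well above background on all 3 arrays of a group, with the brightest probe for each gene (23554 probes, 17721 genes). Group means were fitted to the 18 arrays with limma 3.58.1 in R 4.3.3 (lmFit and eBayes, 12 residual degrees of freedom), and p-values were adjusted over all 17721 genes by Benjamini-Hochberg, with 0.05 as the threshold. The procedure was tested on simulated data with known changes in each mutant. It recovered 1.49% to 7.46% of log2 changes of 0.5 in the 3 comparisons. For changes of 1 the share was 38.8% to 50.7%, and for changes of 2 it was 80.3% to 90.9%. The simulation changed only 66 or 67 genes by each amount, where 3348 genes were called in Nrf1 CKO. These shares need not hold in that comparison, where C2 passed at -0.51. A member that was not called can still hold a change within its own confidence interval, which for C4bp was -0.30 to 0.29. Every member was described. Of each related list up to 4 called genes with the largest change were named by rule, while Hc, Hrg, Hgfac, Vkorc1, Ggcx, Alb and Hnf4a were chosen after their values were seen. Array values were rule-bound for the 12 largest called changes and the extremes of each role, and those of other members were added after their values were seen. The members and lists were chosen with earlier results of these data known. The deposited series table held the same 810324 values. Alternatives changed the scaling, filter, probe choice, variance model, weights, blocks for slide, scan date and replicate number, and left out single arrays. The normexp alternative used median signals with an offset of 50. Gene positions other than those of the promoters, and protein sequences, were not used here. The value of 1 gene that the naming rule selects is not reported here.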

Additional observations from a re-analysis of the deposited data

Results flagged for a closer look

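For 6 effects, the test of the difference between the lines passed the threshold (limma, Benjamini-Hochberg over all genes tested). F7 stood out against both other lines, with a mutant change in Nrf1 CKO that was lower by 1.90 than in Nrf2 KO (difference -1.90, adjusted p = 0.0147) and lower by 1.40 than in Keap1 KD (difference -1.40, adjusted p = 0.0438). The differences between the Nrf1 and Nrf2 effects for the fibrinogen gene Fga (-1.16, adjusted p = 0.0375) and the kininogen gene Kng1 (-1.07, adjusted p = 0.0315) also passed. Between the Nrf1 and Keap1 effects, those for the terminal complement genes C6 (2.22, adjusted p = 0.0128) and C8g (-1.06, adjusted p = 0.0410) passed, with opposite signs. After quantile normalization the differences for F7 from Nrf2 KO and C6 from Keap1 KD passed and the other 4 did not. That scaling newly called C4bp and C6 against Nrf2 KO and C4bp against Keap1 KD, each with a positive difference. With slide as a block none of these 6 differences passed.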

How the results depend on the processing

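In Nrf1 CKO 21 members fell and 1 rose. Lower calls fell to 3 after quantile normalization (2 higher), 5 after normexp (3 higher) and 13 without the filter on background. With slide as a block 0 members were lower and 0 higher, where 24 of all genes tested were lower and 41 higher. With the arrays of the Nrf1 line alone 14 members were lower and 0 higher, so C6 was not called. Array quality weights gave 2 lower in Nrf2 KO, quantile normalization 1 and normexp 2 lower in Keap1 KD. The Nrf1 and Nrf2 effects differed for 3 members, and for 1 without the filter or with scan date as a block, 5 with only probes above background on all arrays, 6 with an intensity trend or with the arrays of both lines alone, 21 with weights and 0 with slide. The Nrf1 and Keap1 effects differed for 3 members, and for 1 without the filter, with scan date or with both lines alone, 13 under median scaling, 11 with weights and 0 with slide. The Nrf2 and Keap1 effects differed for 1 member after normexp. Leaving out 1 array gave 1 to 1 higher and 6 to 23 lower in Nrf1 CKO, 0 to 0 in Nrf2 KO, 0 to 1 lower in Keap1 KD, and 1 to 11 differences from each other line. With the replicate number as a block 22 fell and 1 rose in Nrf1 CKO, and 7 and 5 members differed from Nrf2 KO and Keap1 KD. The numbers do not pair the samples, since same-numbered arrays correlated from -0.359 to 0.147 about their group means.

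The members with a positive change in Nrf1 CKO numbered 1, against 11 after quantile normalization and 12 after normexp. Named here are only the members called in the main fit or in the alternative set against it. After quantile normalization the change turned sign for C4bp (0.49) and Serpind1 (0.0149). After normexp it turned sign for Mbl2 (0.47), C4bp (0.43), Serpind1 (0.0453), C2 (0.0041) and F2 (0.0027). The causes were not tested. The number of arrays limits the precision, with a median SE of 0.244 for a mutant effect.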
